A study of Mus musculus with 6 samples.

Results

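The TGF-beta, BMP, SMAD and Id genes are 40 genes of the transforming growth factor beta superfamily pathway, taken by gene symbol from the deposited table of expression levels in WT and Fmr1-KO hippocampal cultures. All 40 symbols were found among the 47086 loci of the table, and none of them lies on chromosome X or Y. Nog had rows at 2 loci, of which the locus on an unplaced scaffold was listed at 0 in every library and the other was used. Total RNA (RNA integrity number above 8) was sequenced from primary hippocampal cultures of newborn C57BL/6 pups at day 14 in vitro, and 6 libraries were made, 3 for WT and 3 for Fmr1-KO mice. The Fmr1-KO mice lack FMRP, the RNA-binding protein that is missing in fragile X syndrome, in every cell type and from conception, and no drug, transgene or Cre line is given for either genotype. The cultures came from several litters, but the litter and sex of the pups behind each single library are not named, although for its mice in general the study gives male Fmr1-KO animals and WT littermates bred from heterozygous mothers, so p-values measure only the spread between these libraries. Levels are FPKM, the fragments of a transcript per length and per mapped fragment of the library, so that levels of different genes can be set side by side.

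TGF-beta and BMP ligands are secreted dimers that bring together type I and type II receptor kinases at the cell surface. The type I receptor phosphorylates receptor-regulated SMADs (Smad2 and Smad3 for TGF-beta and activin, Smad1, Smad5 and Smad9 for BMPs), which join Smad4, enter the nucleus and act on target genes, while Smad6, Smad7 and secreted binding proteins such as noggin, chordin and follistatin damp the signal. The Id genes are classical BMP targets; their proteins have a helix-loop-helix but no DNA-binding region, and hold back the bHLH factors that drive neuronal and glial differentiation. In the hippocampus, BMP signalling is known for favouring astrocytes over neurons and for keeping neural stem cells quiescent, and TGF-beta for its roles in astrocytes, microglia and vessels.

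The promoters of 3 Id genes and of Bmp6 are shown because the Id genes are the direct targets in the module and Bmp6 had the widest ratio between genotypes among members with signal in every library. Id1 had no entry in the RefSeq promoter table, so its promoter is not shown and was not searched. Each run is 5′ to 3′ on the strand of the gene, from 250 bases before to 50 bases after the RefSeq start (GRCm38.p6), and the capitals mark GGCGCC, the GC-rich core of BMP response elements. The windows are chr12:25096043-25096342 (minus strand) for Id2, chr4:136143572-136143871 (plus strand) for Id3, chr13:48260866-48261165 (plus strand) for Id4 and chr13:38345466-38345765 (plus strand) for Bmp6.
Id2: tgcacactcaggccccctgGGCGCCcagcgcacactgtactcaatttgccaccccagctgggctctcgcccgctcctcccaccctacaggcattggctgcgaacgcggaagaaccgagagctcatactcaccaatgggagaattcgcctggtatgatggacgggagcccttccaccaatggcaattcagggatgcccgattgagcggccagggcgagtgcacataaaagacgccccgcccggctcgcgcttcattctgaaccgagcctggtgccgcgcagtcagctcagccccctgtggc
Id3: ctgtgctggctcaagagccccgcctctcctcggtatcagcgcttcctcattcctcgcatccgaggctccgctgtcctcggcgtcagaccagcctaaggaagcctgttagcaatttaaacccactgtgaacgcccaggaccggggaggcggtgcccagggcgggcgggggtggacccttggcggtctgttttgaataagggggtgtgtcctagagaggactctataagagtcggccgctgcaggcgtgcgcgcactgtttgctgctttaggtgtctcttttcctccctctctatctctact
Id4: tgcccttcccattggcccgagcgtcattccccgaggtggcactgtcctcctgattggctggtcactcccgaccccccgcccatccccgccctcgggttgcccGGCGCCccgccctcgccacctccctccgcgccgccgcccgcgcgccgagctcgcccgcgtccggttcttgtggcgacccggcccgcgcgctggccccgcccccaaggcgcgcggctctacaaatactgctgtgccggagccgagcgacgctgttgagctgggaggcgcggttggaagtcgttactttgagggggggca
Bmp6: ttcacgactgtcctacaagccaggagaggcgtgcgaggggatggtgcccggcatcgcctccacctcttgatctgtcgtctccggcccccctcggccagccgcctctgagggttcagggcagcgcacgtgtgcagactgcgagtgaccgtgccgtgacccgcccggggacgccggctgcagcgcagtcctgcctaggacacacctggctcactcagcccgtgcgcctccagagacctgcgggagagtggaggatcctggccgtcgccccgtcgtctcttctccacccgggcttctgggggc
The Id2 and Id4 windows each held GGCGCC once and the Id3 and Bmp6 windows did not. The RefSeq promoter table matched 26 of the 40 genes, with 32 promoters, and GGCGCC stood on either strand in 11 of the 32 (34.4%), from 10 of the 26 genes since 2 overlapping Smad5 windows hold the same site, against 11.9% of all 32851 promoters. Promoters of the module were richer in G and C (median 65.7% against 52.7%), and among promoters with at least 60% GC the shares were 10 of 22 (45.5%) and 30.9%. The SMAD palindrome GTCTAGAC was found in 1 member promoter, that of Smad6 (3.12%, against 0.213% of all). The short SMAD box GTCT, which is contained in the palindrome, was in 87.5% of member promoters and 88.0% of all, and the E-box CANNTG in 16 of the 32 and in 72.3% of all. A match to these letters is a description of the sequence and not of binding.

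Fmr1 itself did not separate the genotypes, as the Fmr1-KO libraries held 23.1, 21.8 and 18.5 FPKM against 19.0, 19.5 and 19.7 in WT (log2 change 0.12, SE 0.08, adjusted p = 0.536). An FPKM over the whole gene does not show whether the disrupted part is present, so this level does not check the genotype. Of the marker lists, summed FPKM overlapped between genotypes for astrocytes (1769 to 2083 in WT, 1831 to 2030 in Fmr1-KO, with an unadjusted p below 0.05 for 2 of 10 tested markers, both lower), excitatory neurons (957 to 1002 and 983 to 1044, 1 higher and 2 lower of 10), inhibitory neurons (490 to 495 and 487 to 536, 4 higher and 1 lower of 9) and the oligodendrocyte lineage (372 to 433 and 416 to 465, 2 higher of 8). The sums did not overlap for microglia (5.28 to 7.41 and 1.06 to 3.05, 3 lower of 3), endothelial cells (3.81 to 4.11 and 2.48 to 3.07, 0 of 1), fibroblasts, meninges and mural cells (48.3 to 53.0 and 39.5 to 47.4, 1 lower of 4, most of it from Dcn), choroid plexus (1.21 to 1.76 and 54.1 to 63.9, 1 higher of 2, most of it in Fmr1-KO from Ttr) and proliferation (50.3 to 56.3 and 59.1 to 66.1, 6 higher of 10). Without Dcn the other 9 fibroblast, meninges and mural cell markers overlapped (9.19 to 9.33 and 8.43 to 9.47), and without Ttr the other 7 choroid plexus markers held 1.15 to 1.76 in WT and 2.09 to 3.19 in Fmr1-KO. Over all tested loci, an unadjusted p below 0.05 was reached by 6.99% with a higher and 7.77% with a lower level. Of all markers only Ttr, transthyretin, the main secreted protein of choroid plexus epithelium, passed the test over all loci (adjusted p = 4.47e-07). These are bulk cultures, in which fewer cells of a type and less RNA per cell cannot be told apart.

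Most of the module was expressed in these cultures, mainly at levels below the median of all tested loci. Of the 40 genes, 31 reached a mean of 1 FPKM in either genotype and were tested with limma among 13195 loci, and 9 lay under that minimum (Tgfb1, Bmp2, Bmp5, Bmp6, Acvrl1, Eng, Bambi, Smad6 and Grem1). The highest mean levels over the 6 libraries were those of Id2 (44.4 FPKM), the BMP receptor Bmpr2 (33.8), the activin receptor Acvr2a (25.6), Id4 (24.8) and the activin receptor Acvr1b (22.2). The lowest was that of Bmp5 (0.0272 FPKM), and 10 members lay above the median level of all tested loci, 10.2 FPKM.

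**Figure D1:**
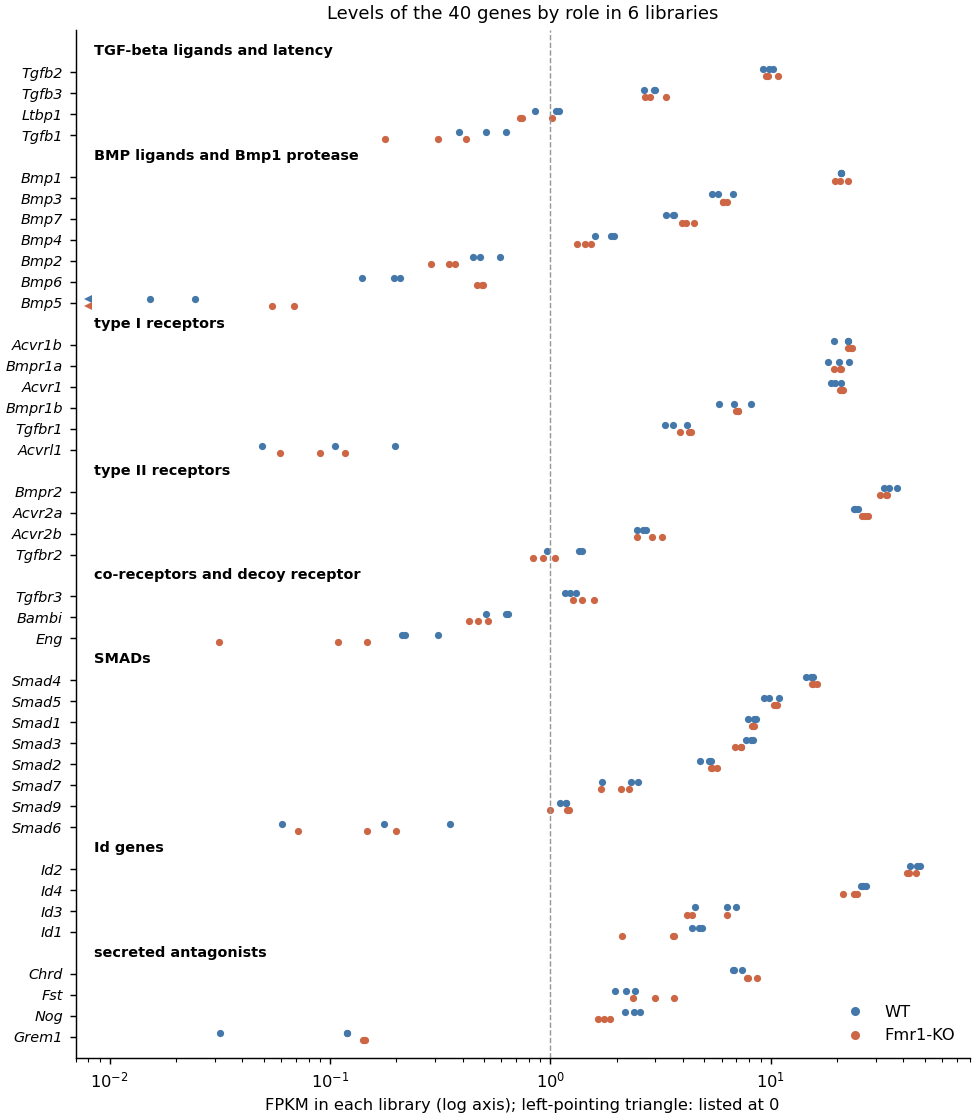
FPKM on a log axis of each of the 40 genes, grouped by role, with 1 point per WT or Fmr1-KO library, triangles for a listed 0 and a dashed line at the minimum of 1 FPKM. Id2 and Bmpr2 stand furthest to the right and Bmp5 furthest to the left, and the points of both genotypes lie close together for most genes above 1 FPKM.

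No member passed the test between genotypes: 0 of 31 had an adjusted p below 0.05, where 35 of the 13195 loci (0.265%) did, and the smallest adjusted p of a member was 0.195. At an unadjusted p below 0.05, 4 members were higher in Fmr1-KO (Chrd, Fst, Bmp7 and Acvr2a, against 6.99% of all tested loci in that direction) and 4 were lower (Id1, Nog, Id4 and Smad3, against 7.77%), together 25.8% of the 31 against 14.8% of all tested loci. The count of 4 higher became 2 without WT replicate 2, WT replicate 3, Fmr1-KO replicate 1 or Fmr1-KO replicate 3 and 1 without Fmr1-KO replicate 2, and the count of 4 lower became 2 without Fmr1-KO replicate 2. The 3 libraries of one genotype lay apart from those of the other in 10 of the 31, with 5 higher (10.8% of all tested loci) and 5 lower (10.3%), together 32.3% against 21.1%. Without an FPKM minimum all 40 could be set among 26981 loci: 0 had an adjusted p below 0.05 (0.0556% of those loci), an unadjusted p below 0.05 was reached by 4 with a higher level (4.43%) and 5 with a lower level (5.36%; 9.8% in either direction), and the libraries lay apart in 14, with 7 higher (7.0%) and 7 lower (7.44%; 14.4% in either direction). The median log2 change of the 31 was 0.04, beside 0.005 for all tested loci, and ran from -0.01 without WT replicate 1 to 0.07 without WT replicate 3; 17 of the 31 lay above 0 and 14 below. The members varied among replicates about as much as other loci, with a median coefficient of variation of 6.03% in WT (6.72% for all tested loci) and 6.31% in Fmr1-KO (5.65%).

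**Figure D2:**
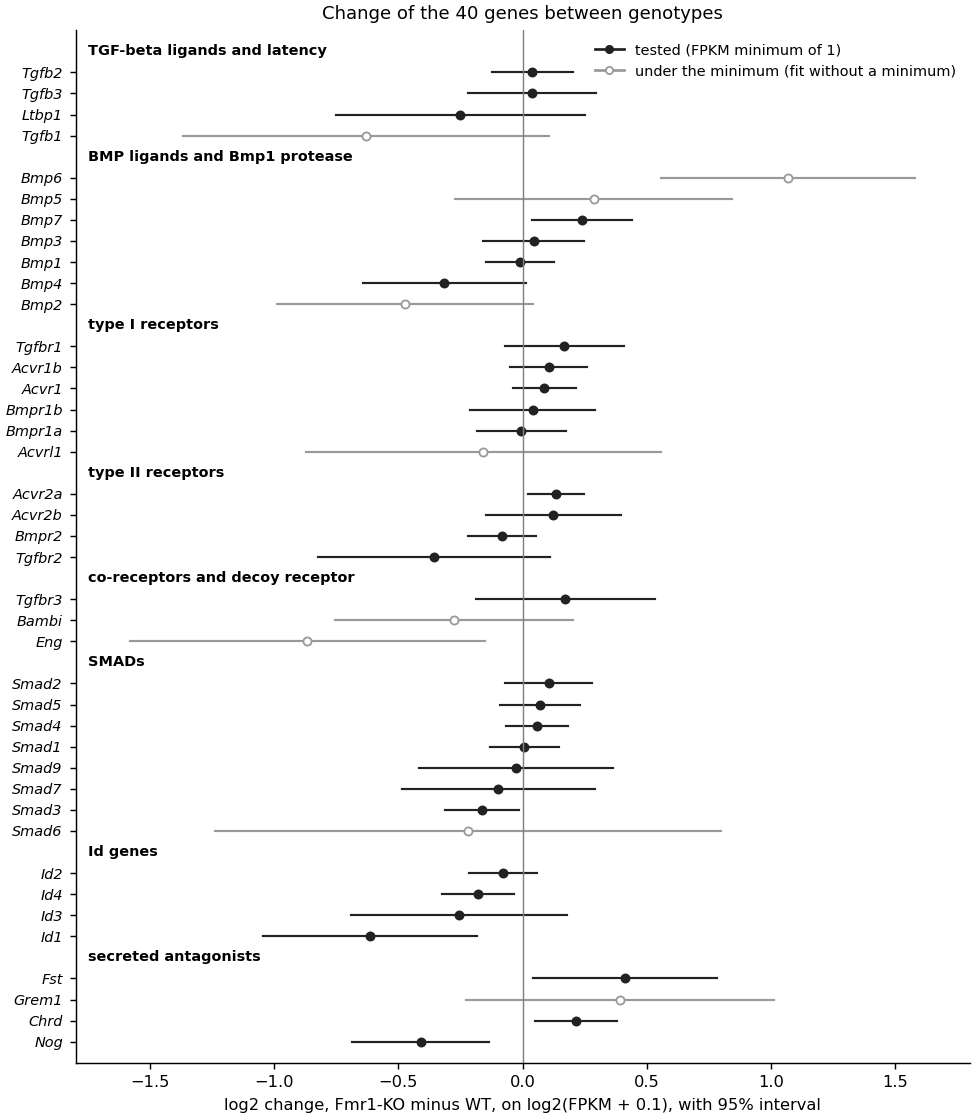
Log2 change between genotypes (Fmr1-KO minus WT, on log2(FPKM + 0.1)) of the 40 genes with 95% intervals, by role; filled points were tested at the FPKM minimum of 1 and open points come from the fit without a minimum. The intervals of Id1, Id4, Nog and Smad3 lie below 0 and those of Bmp7, Acvr2a, Chrd and Fst above it, as do, among the open points, those of Eng (below) and Bmp6 (above), none of these at an adjusted p below 0.05, and all 4 Id genes have a point below 0.

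The TGF-beta ligands Tgfb2 and Tgfb3 were near the same level in both genotypes. Tgfb2, the main TGF-beta ligand of these cultures, held 9.25, 9.83 and 10.2 FPKM in WT and 9.52, 9.76 and 10.8 in Fmr1-KO. The libraries overlapped, and the difference was 0.04 on the log2 scale (SE 0.07, 95% interval -0.12 to 0.20, adjusted p = 0.849). Tgfb3, a second ligand of the same receptors, averaged 2.87 ± 0.173 FPKM (SD, n = 3) in WT and 2.96 ± 0.337 in Fmr1-KO, and Ltbp1, which holds latent TGF-beta in the matrix, 1.0 ± 0.128 and 0.830 ± 0.159. Tgfb1 lay under the minimum, at 0.629, 0.513 and 0.387 FPKM in WT and 0.178, 0.416 and 0.308 in Fmr1-KO. Those libraries overlapped, with a log2 change of -0.63 (SE 0.31, adjusted p = 0.560 over the 26981 loci without a minimum). Microglia are a known source of Tgfb1, and their summed markers were lower in Fmr1-KO as given above. Of the 10 markers, 6 were lower in every Fmr1-KO library, as were 7.44% of the 26981 loci without a minimum. Csf1r and Tyrobp overlapped, and Aif1 and Tmem119 were listed at 0 throughout. The part of microglia in the Tgfb1 level was not tested. As shares of summed TGF-beta ligand FPKM, Tgfb2 made up 74.2% ± 0.874 (SD, n = 3) in WT and 75.5% ± 3.08 in Fmr1-KO (exact two-sided permutation test, p = 0.6, where 0.1 is the smallest p that 3 against 3 allow).

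Among BMP ligands the levels of Bmp7 and Bmp6 were higher and those of Bmp4 and Bmp2 lower in each Fmr1-KO library than in any WT library, all without passing the test. Bmp3, an atypical BMP that opposes activin and BMP receptors, was the most abundant, at 6.00 ± 0.690 FPKM (SD, n = 3) in WT and 6.16 ± 0.134 in Fmr1-KO. Bmp7 (chr2:172868012-172940321), a ligand of the BMP and activin type II receptors, held 3.60, 3.34 and 3.65 FPKM in WT and 3.95, 4.14 and 4.47 in Fmr1-KO. The log2 change was 0.24 (SE 0.09, 95% interval 0.04 to 0.44, adjusted p = 0.267), and the unadjusted p was below 0.05 in 10 of 13 alternative settings. Bmp4 (chr14:46383525-46390669), a ligand known for astrocyte fate and stem cell quiescence, held 1.60, 1.94 and 1.88 FPKM in WT and 1.53, 1.32 and 1.44 in Fmr1-KO. Its log2 change was -0.32 (SE 0.14, 95% interval -0.64 to 0.01, adjusted p = 0.358). Bmp1, which is a protease that cuts procollagen and chordin and not a BMP ligand, held 20.9, 20.9 and 21.0 FPKM in WT and 19.5, 22.3 and 20.6 in Fmr1-KO, a log2 change of -0.01 (SE 0.06).

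Bmp6 (chr13:38345716-38500314) had the widest ratio of any member with a value above 0 in every library, at a low level. It held 0.140, 0.194 and 0.207 FPKM in WT and 0.497, 0.491 and 0.467 in Fmr1-KO. Every Fmr1-KO library lay above every WT library, with a ratio of means of 2.69. In the fit without a minimum the log2 change was 1.07 (SE 0.21, 95% interval 0.56 to 1.58, adjusted p = 0.207). Over its 9 alternative settings the unadjusted p stayed below 0.05 in all 9, the adjusted p ran from 0.118 to 0.472, and the log2 change from 0.33 with a pseudocount of 1 to 1.40 with 0.01. Exons of Bmp6 share 5.7% of their bases with the antisense gene Txndc5, which was at 22.6 FPKM in WT and 23.9 in Fmr1-KO; no source used here gives the strand of the libraries, so reads from this stretch cannot be assigned. Choroid plexus markers also had a higher summed FPKM, 1.21 to 1.76 in WT and 54.1 to 63.9 in Fmr1-KO, or 1.15 to 1.76 and 2.09 to 3.19 without Ttr. Of the 8 markers, 4 (Ttr, Clic6, Otx2 and Aqp1) were higher in every Fmr1-KO library, as were 7.0% of the 26981 loci without a minimum. Another 3 overlapped (Folr1, Kcne2 and Prlr), and Kl was listed at 0 in every library. Clic6, an intracellular chloride channel protein of that epithelium, held 0.0941, 0.0704 and 0.0625 FPKM in WT and 0.614, 0.386 and 0.704 in Fmr1-KO, which did not overlap. The part of these cells in the Bmp6 level was not tested.

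Bmp2, the closest relative of Bmp4, held 0.589, 0.445 and 0.479 FPKM in WT and 0.287, 0.346 and 0.371 in Fmr1-KO. These libraries did not overlap, with a log2 change of -0.47 (SE 0.22, adjusted p = 0.533 without a minimum). Bmp5 was listed at 0 in 1 library of each genotype and at no more than 0.0688 FPKM elsewhere, and 46.7% of its exonic bases are shared with an antisense gene. The sum of the BMP ligands Bmp2 to Bmp7 was 12.03 ± 0.861 FPKM (SD, n = 3) in WT and 12.6 ± 0.270 in Fmr1-KO, and its makeup is given here as shares. Bmp3 held 49.7% ± 2.15 and 48.8% ± 1.44 of that sum (exact two-sided permutation test, p = 0.6). Bmp7 held 29.4% ± 1.97 and 33.1% ± 1.40, Bmp4 15.0% ± 1.36 and 11.3% ± 0.954, Bmp2 4.22% ± 0.835 and 2.65% ± 0.288, and Bmp6 1.49% ± 0.231 and 3.84% ± 0.208. For Bmp7, Bmp4, Bmp2 and Bmp6 the shares in the 3 Fmr1-KO libraries did not overlap those in WT, and no test was made of them.

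**Figure D3:**
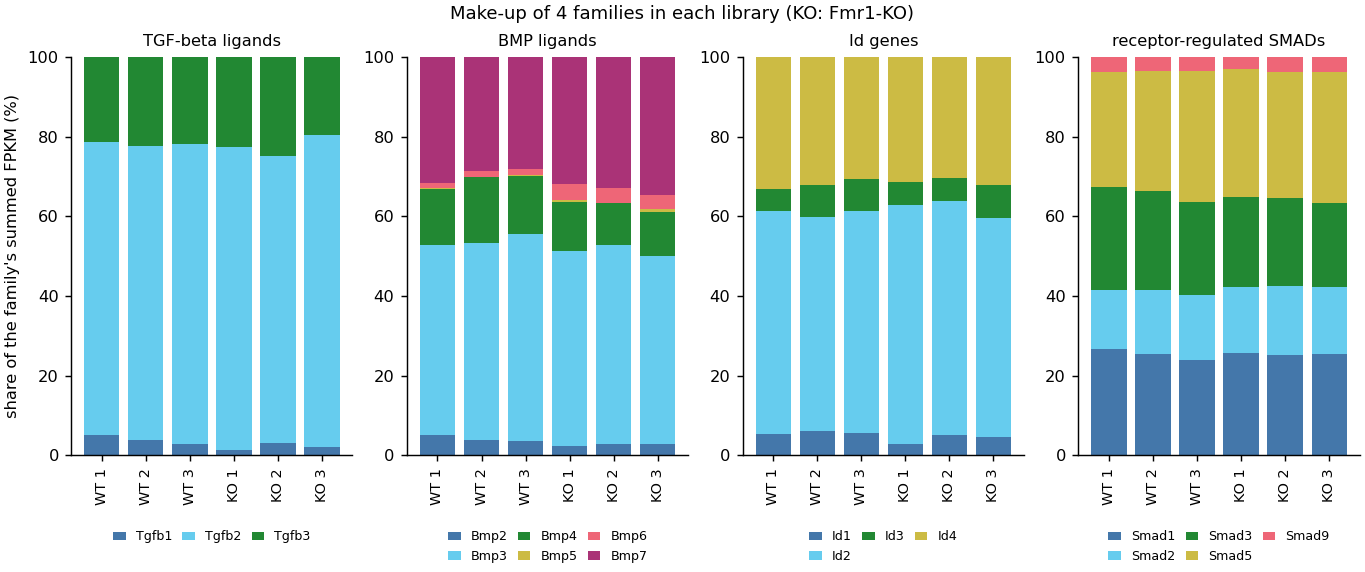
Share in percent of the summed FPKM of the TGF-beta ligands, the BMP ligands, the Id genes and the receptor-regulated SMADs held by each gene, in each of the 3 WT and 3 Fmr1-KO libraries. Tgfb2 leads its family with 72.2% to 78.3%, Bmp3 with 47.2% to 52.0% and Id2 with 53.8% to 60.1% in each of the 6 libraries.

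No receptor passed the test, and Bmpr2, Acvr2a, Acvr1b, Bmpr1a and Acvr1 were each more abundant than the TGF-beta receptors Tgfbr1 and Tgfbr2. Of the type I receptors, the kinases that phosphorylate SMADs, Acvr1b, Bmpr1a and Acvr1 were each between 19.7 and 23.0 FPKM on average in either genotype, Bmpr1b between 6.92 and 7.06 and Tgfbr1 between 3.70 and 4.16. Acvr1b, the activin type I receptor, was the highest, at 19.4, 22.4 and 22.5 FPKM in WT and 23.1, 22.5 and 23.3 in Fmr1-KO. Its Fmr1-KO libraries lay above the WT libraries by a narrow margin, with a log2 change of 0.10 (SE 0.07, 95% interval -0.05 to 0.26, adjusted p = 0.514). Bmpr1a, the main type I receptor of Bmp2 and Bmp4, differed by -0.01 (95% interval -0.19 to 0.18), and Acvr1, which serves Bmp6 and Bmp7, by 0.09 (-0.04 to 0.21). Acvrl1, the endothelial type I receptor, lay under the minimum at 0.103 FPKM over all libraries.

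Of the type II receptors, Acvr2a (chr2:48814109-48903264), which binds activins and Bmp7, held 24.2, 24.9 and 24.0 FPKM in WT and 27.7, 26.7 and 26.0 in Fmr1-KO. Every Fmr1-KO library lay above every WT library, by 0.13 on the log2 scale (SE 0.05, 95% interval 0.02 to 0.25, adjusted p = 0.264), and the unadjusted p was below 0.05 in 11 of 14 alternatives. The antisense gene Orc4 shares 7.8% of the exonic bases of Acvr2a. Bmpr2, the type II receptor that BMPs use most, held 32.8, 37.3 and 34.3 FPKM in WT and 33.8, 31.4 and 33.3 in Fmr1-KO, which overlapped (log2 change -0.08, SE 0.06, adjusted p = 0.572). Tgfbr2, the type II receptor of TGF-beta, was much lower, at 1.24 ± 0.233 FPKM (SD, n = 3) in WT and 0.936 ± 0.107 in Fmr1-KO. Its libraries overlapped as well, with a log2 change of -0.36 (SE 0.21, adjusted p = 0.464).

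Among co-receptors, Tgfbr3 (betaglycan), which presents Tgfb2 to its receptors, held 1.17, 1.23 and 1.31 FPKM in WT and 1.26, 1.39 and 1.57 in Fmr1-KO. These overlapped, with a log2 change of 0.17 (SE 0.16, adjusted p = 0.662). Eng (endoglin, chr2:32646595-32682669), the co-receptor of vessel endothelium, held 0.310, 0.212 and 0.220 FPKM in WT and 0.147, 0.0314 and 0.108 in Fmr1-KO. No Fmr1-KO library reached the lowest WT library, and the log2 change was -0.87 (SE 0.30, 95% interval -1.58 to -0.15, adjusted p = 0.431 without a minimum). Its unadjusted p was below 0.05 in 7 of 9 alternatives. Endothelial markers were also low, with sums of 3.81 to 4.11 FPKM in WT and 2.48 to 3.07 in Fmr1-KO and with Cldn5 listed at 0 in every library. Pecam1, Emcn and Vwf were the 3 of 10 with an unadjusted p below 0.05 without a minimum, all lower, against 5.36% of the 26981 loci in that direction. Kdr, the only one of the list that reached the minimum, averaged 1.04 FPKM in WT and 1.02 in Fmr1-KO (log2 change -0.003). Its libraries overlapped, as did those of Emcn, Cdh5, Tek, Flt1, Ly6c1 and Esam. The part of endothelial cells in the Eng level was not tested. Bambi, a decoy that lacks the kinase domain, was at 0.594 ± 0.0729 FPKM (SD, n = 3) in WT and 0.473 ± 0.0468 in Fmr1-KO.

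No SMAD passed the test, and of the 7 tested SMADs Smad3 had the log2 change furthest from 0. Smad4, the shared partner of all receptor-regulated SMADs and the most abundant, held 14.5, 15.6 and 15.2 FPKM in WT and 16.2, 15.6 and 15.4 in Fmr1-KO. The groups overlapped, and the log2 change was 0.06 (95% interval -0.07 to 0.18, adjusted p = 0.671). Smad3 (chr9:63646766-63757994), an effector of TGF-beta and activin, held 8.35, 8.12 and 7.71 FPKM in WT and 7.32, 7.37 and 6.89 in Fmr1-KO. All Fmr1-KO libraries were below all WT libraries, by -0.16 on the log2 scale (SE 0.07, 95% interval -0.31 to -0.01, adjusted p = 0.303), with an unadjusted p below 0.05 in 9 of 14 alternatives. Smad2, the other effector of the same receptors, lay on the other side of 0. It held 4.76, 5.26 and 5.36 FPKM in WT and 5.38, 5.72 and 5.45 in Fmr1-KO, a narrow separation with a log2 change of 0.11 (SE 0.08, adjusted p = 0.573).

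The BMP effectors Smad1 and Smad5 differed by 0.01 (95% interval -0.13 to 0.15) and 0.07 (-0.09 to 0.23), and Smad9, the least abundant of the BMP effectors at 1.15 FPKM, by -0.03. The summed receptor-regulated SMADs were 32.7 ± 0.443 FPKM (SD, n = 3) in WT and 32.7 ± 0.535 in Fmr1-KO. Smad5 led with 30.7% ± 2.16 and 32.2% ± 0.581 of that sum (exact two-sided permutation test, p = 0.4). The BMP effectors Smad1, Smad5 and Smad9 together held 59.2%, 59.2% and 60.4% in WT, against 60.7%, 60.7% and 62.1% in Fmr1-KO. These did not overlap (exact two-sided permutation test, p = 0.1, the smallest p that 3 against 3 allow). The inhibitory Smad7, a feedback target of TGF-beta, was at 2.18 ± 0.408 FPKM (SD, n = 3) in WT and 2.02 ± 0.295 in Fmr1-KO, and Smad6, the BMP counterpart whose promoter carried the SMAD palindrome, was under the minimum at 0.168 FPKM over all libraries.

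All 4 Id genes had a lower mean in Fmr1-KO, and the median of their log2 changes was -0.22 beside 0.005 for all tested loci, from -0.13 without Fmr1-KO replicate 2 to -0.33 without Fmr1-KO replicate 3. Id1 (chr2:152736251-152737410), a classical BMP target, held 4.41, 4.90 and 4.75 FPKM in WT and 2.11, 3.64 and 3.60 in Fmr1-KO. Every Fmr1-KO library lay below every WT library, and Fmr1-KO replicate 1 was the furthest. The log2 change was -0.61 (SE 0.19, 95% interval -1.04 to -0.18, adjusted p = 0.208), or -0.36 without Fmr1-KO replicate 1. The unadjusted p stayed below 0.05 in all 13 alternative settings, with adjusted p between 0.0921 and 0.427.

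Id4 (chr13:48261116-48266028), which is known in neural stem cells and astrocytes, held 27.2, 25.7 and 26.2 FPKM in WT and 23.9, 21.4 and 24.7 in Fmr1-KO. The libraries did not overlap, with a log2 change of -0.18 (SE 0.06, 95% interval -0.32 to -0.03, adjusted p = 0.258) and an unadjusted p below 0.05 in 12 of 14 alternatives. Id2 (chr12:25093799-25096092), the most abundant Id gene and the most abundant member, held 46.1, 43.0 and 47.9 FPKM in WT and 45.8, 41.5 and 42.3 in Fmr1-KO. These overlapped, with a log2 change of -0.08 (SE 0.06, 95% interval -0.22 to 0.06, adjusted p = 0.587). Id3 (chr4:136143822-136145392), which is often co-expressed with Id1, held 4.53, 6.37 and 6.96 FPKM in WT and 4.38, 4.19 and 6.37 in Fmr1-KO. It was the most variable of the family in WT, with a coefficient of variation of 21.3%, its libraries overlapped, and its log2 change was -0.26 (SE 0.19, 95% interval -0.69 to 0.18, adjusted p = 0.582).

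Summed over the family, Id FPKM was 79.9 to 85.8 in WT and 70.7 to 76.9 in Fmr1-KO. These sums did not overlap (exact two-sided permutation test, p = 0.1, the smallest p that 3 against 3 allow). Id2 held 55.2% ± 1.26 (SD, n = 3) of the sum in WT and 57.9% ± 2.65 in Fmr1-KO (exact two-sided permutation test, p = 0.3), and Id4 31.9% ± 1.28 and 31.2% ± 0.903. Id genes are expressed in astrocytes, and of the 10 astrocyte markers S100b and Gja1 were lower at an unadjusted p below 0.05 (log2 changes -0.36 and -0.19). Of all tested loci, 7.77% were lower at that threshold. Of the 10 astrocyte markers, 5 lay above 0 and 5 below, and the summed levels overlapped. The part of astrocytes in the Id levels was not tested.

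**Figure D4:**
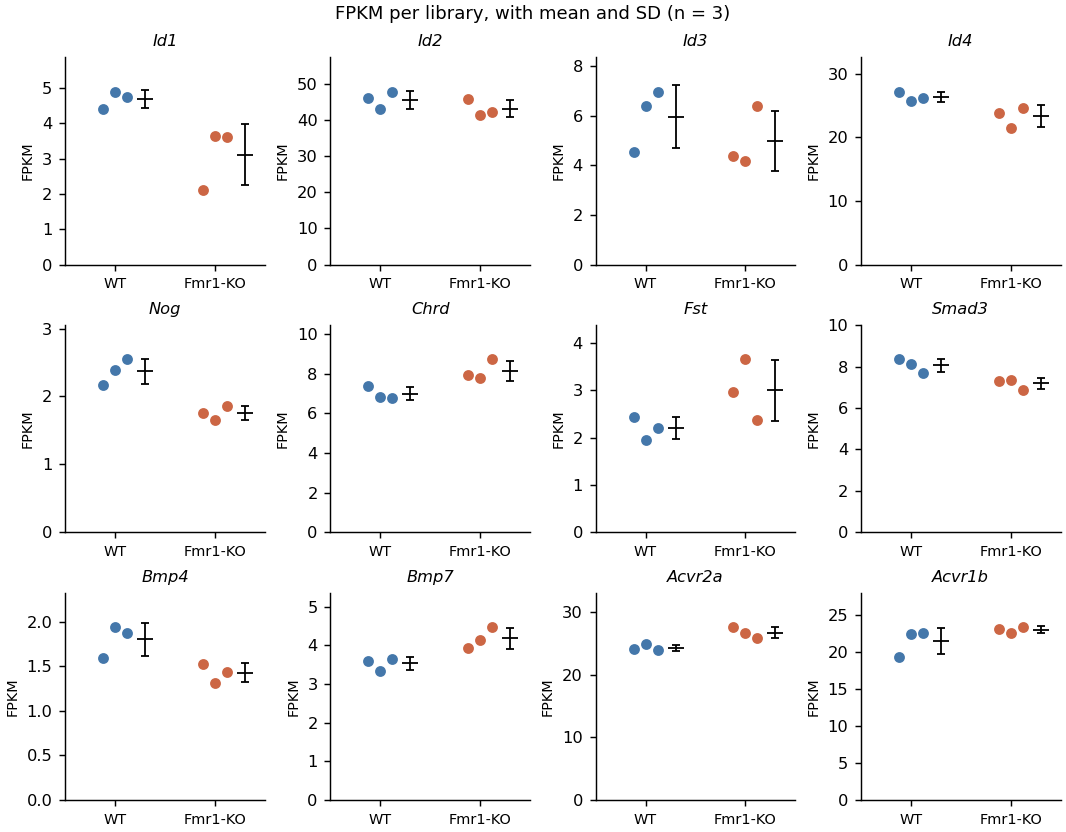
FPKM in each WT and Fmr1-KO library (points) with mean and SD (n = 3) for 12 members, on linear axes from 0. Id1, Id4, Nog, Smad3 and Bmp4 lie lower and Chrd, Bmp7, Acvr2a and Acvr1b higher in all Fmr1-KO libraries, while Id2, Id3 and Fst overlap.

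The secreted antagonists went in different directions. Nog (noggin, chr11:89300638-89302559), which binds BMP ligands and keeps them from their receptors, held 2.17, 2.39 and 2.55 FPKM in WT and 1.76, 1.65 and 1.86 in Fmr1-KO. All Fmr1-KO libraries were below all WT libraries, with a log2 change of -0.41 (SE 0.12, 95% interval -0.69 to -0.13, adjusted p = 0.195), the smallest adjusted p of the module. The unadjusted p stayed below 0.05 in all 13 alternatives, with adjusted p between 0.125 and 0.470. Chrd (chordin, chr16:20731425-20742384), another BMP binder that Bmp1 can cleave, held 7.38, 6.84 and 6.75 FPKM in WT and 7.92, 7.79 and 8.72 in Fmr1-KO. It lay higher in every Fmr1-KO library, with a log2 change of 0.22 (SE 0.07, 95% interval 0.05 to 0.38, adjusted p = 0.234) and an unadjusted p below 0.05 in 12 of 14 alternatives.

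Fst (follistatin, chr13:114452262-114458989), which traps activins, held 2.44, 1.96 and 2.22 FPKM in WT and 2.97, 3.66 and 2.37 in Fmr1-KO. Fmr1-KO replicate 3 lay within the WT range, and the log2 change was 0.41 (SE 0.16, 95% interval 0.04 to 0.78, adjusted p = 0.293), from 0.26 without Fmr1-KO replicate 2 to 0.57 without Fmr1-KO replicate 3. Grem1 (gremlin), an antagonist of Bmp2 and Bmp4, held 0.119, 0.119 and 0.0317 FPKM in WT and 0.141, 0.145 and 0.143 in Fmr1-KO. These did not overlap, but at this level the log2 change was 0.39 with an SE of 0.26 (adjusted p = 0.691 without a minimum). By level Chrd was the leading antagonist in both genotypes, at 6.99 ± 0.341 FPKM (SD, n = 3) in WT and 8.14 ± 0.501 in Fmr1-KO.

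**Figure D5:**
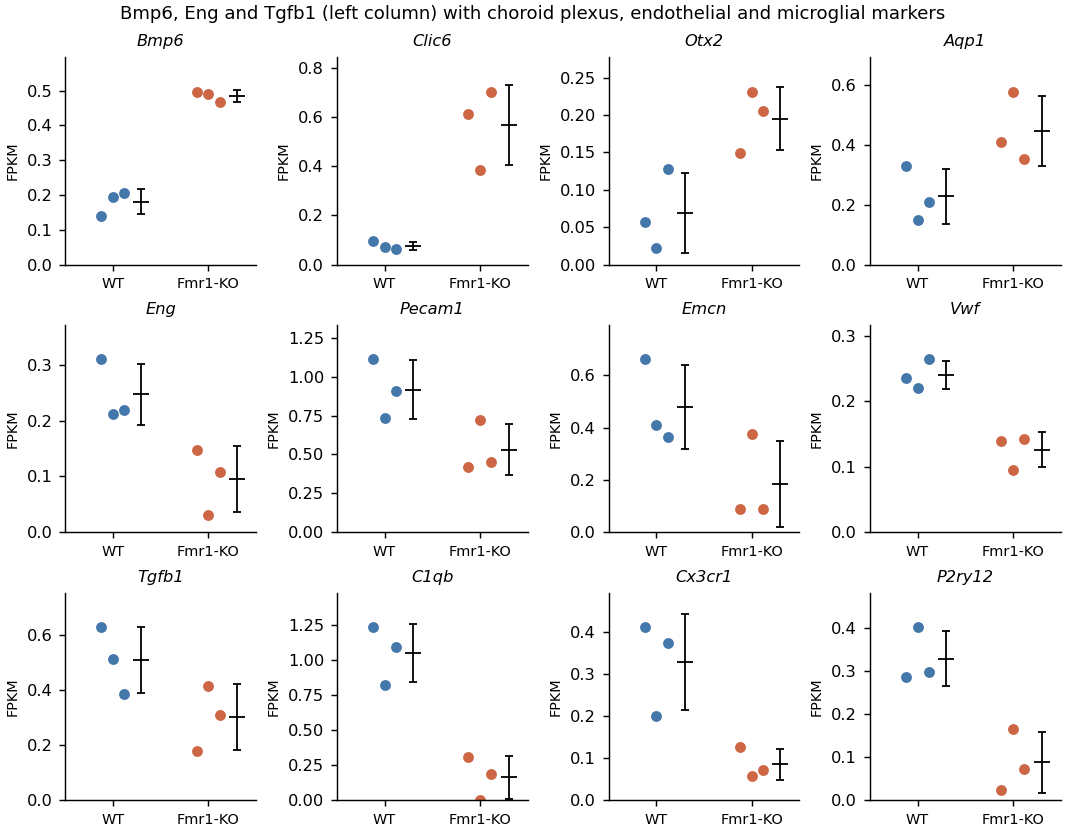
FPKM in each WT and Fmr1-KO library (points) with mean and SD (n = 3) on linear axes from 0, for Bmp6, Eng and Tgfb1, members under the FPKM minimum, each beside 3 markers of choroid plexus, endothelium or microglia. Bmp6 and its 3 markers lie higher in all Fmr1-KO libraries, Eng, Pecam1, Vwf, C1qb, Cx3cr1 and P2ry12 lie lower in all of them, and Emcn and Tgfb1 overlap. Each of the 3 marker lists also held markers, not shown here, that overlapped between genotypes, among them Kdr for endothelium.

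The rest of the pathway held no gene that passed the test either. Of 94 other ligands, receptors, antagonists, latency proteins, SMAD regulators, target genes and bHLH partners of Id proteins, 60 were tested, 0 had an adjusted p below 0.05, and 5 were listed at 0 in every library (Inhbe, Gdf2, Gdf3, Bmp10 and Tdgf1). An unadjusted p below 0.05 was seen for 3 with a higher and 4 with a lower level, 11.7% of the 60 against 14.8% of all tested loci, and the count of 3 higher became 6 without WT replicate 1 or without Fmr1-KO replicate 1. The median log2 change was 0.04. By list, 0 of 8 tested other ligands and 0 of 3 other receptors were past that threshold in either direction. It was passed by 2 of 9 other antagonists (both lower), 1 of 8 latency and activation genes (higher), 2 of 17 SMAD regulators (both lower), 1 of 5 target genes (higher) and 1 of 10 bHLH partners (higher).

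Dcn (decorin), a matrix proteoglycan that binds TGF-beta and is also in the fibroblast list, had a log2 change of -0.27 (SE 0.09, adjusted p = 0.237), and makes up most of the sum of that list; the other 9 markers of the list overlapped between genotypes, as given above. Pmepa1, a TGF-beta-induced inhibitor of Smad2 and Smad3, held 4.57, 4.03 and 4.28 FPKM in WT and 3.31, 3.32 and 3.47 in Fmr1-KO. The 3 Fmr1-KO libraries were below those of WT, with a log2 change of -0.34 (SE 0.09, adjusted p = 0.142). Tgif1, a co-repressor of SMADs, held 2.25, 2.34 and 2.14 FPKM against 1.49, 1.82 and 1.31, also without overlap (log2 change -0.53, SE 0.15, adjusted p = 0.173). Itgav, the integrin subunit that frees latent TGF-beta, averaged 22.0 ± 1.95 FPKM (SD, n = 3) in WT and 25.8 ± 0.987 in Fmr1-KO, without overlap (log2 change 0.23, SE 0.07, adjusted p = 0.204).

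The bHLH partners of Id proteins lay on the other side of 0 from the Id genes. All 10 were tested, all 10 had a log2 change above 0, and their median was 0.10, beside 0.005 for all tested loci. Only Olig2, an oligodendrocyte lineage factor that is also in the marker list of that lineage, had an unadjusted p below 0.05, at 70.2 ± 4.80 FPKM (SD, n = 3) in WT and 83.2 ± 3.54 in Fmr1-KO, without overlap of libraries (log2 change 0.25, SE 0.06, adjusted p = 0.133). The summed markers of that lineage overlapped as given above, and their part in the Olig2 level was not tested. Of the 5 tested target genes, 2 had a log2 change above 0 and 3 below, with a median of -0.11. Libraries did not overlap in 2 of the 5, both lower in Fmr1-KO (10.3% of all tested loci in that direction). Dlx5, a homeobox gene induced by BMPs, had a log2 change of 0.46 (SE 0.20, adjusted p = 0.332) with libraries that overlapped. Dlx5 is also a gene of the interneuron lineage, and of the inhibitory neuron markers Dlx1, Dlx2 and Lhx6 were higher in every Fmr1-KO library (log2 changes 0.38, 0.57 and 0.34), while the summed list overlapped between genotypes; the part of these cells in the Dlx5 level was not tested.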

How the data were processed

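Total RNA of 6 libraries, 3 WT and 3 Fmr1-KO, was sequenced. The authors removed adapters (Fastx Clipper), trimmed the reads (sickle), dropped junk sequence, aligned to GRCm38 with TopHat2, and used Cufflinks and Cuffdiff for genes and their comparison; versions, annotation, strand and library scaling were not given in the sources used here. FPKM values per library were deposited by the authors for 48100 rows (462 without a symbol), which are not counts, so the absolute depth is unknown and the spread between 3 libraries sets the precision. Their columns of group FPKM, fold change, p and q compare the genotypes and were not used here.

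Groups came from the sample labels. Each locus with a mean of at least 1 FPKM in either genotype was tested with limma 3.58.1 (R 4.3.3) on log2(FPKM + 0.1), with 1 term for genotype, trended variances and adjustment by Benjamini-Hochberg over all 13195 loci; all fold changes are on that scale, which understates those of low genes. For the 9 members under the minimum, values come from the same fit without a minimum (26981 loci). The limma step was tested on simulated data. Shares of a family, and the summed Id FPKM, were compared with exact permutation tests. Text names members at an unadjusted p below 0.05 or with separated libraries, the most abundant of each role and all Id genes. Of the other pathway genes it names those at an unadjusted p below 0.05, at most 3 per list by size of change, except 1 that is not reported here; the single markers beside members, Txndc5 and Orc4 were named after their values were seen. Alternatives were pseudocounts of 1 and 0.01, no minimum and a minimum of 5, centring, no trend, removal of the trend with gene span, each library left out, and the replicate number as a block; combinations with no minimum were added after seeing the data. Gene positions and promoters are from RefSeq (GRCm38.p6), and exon overlap was measured on the GENCODE annotation of the same build. The members and lists were chosen with earlier results of these data known.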

Additional observations from a re-analysis of the deposited data

How the results depend on the processing

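No member and no other pathway gene had an adjusted p below 0.05 under any alternative run. At an unadjusted p below 0.05, the counts of 4 higher and 4 lower members became 2 and 2 with an FPKM minimum of 5, at which 18 members were tested, and 1 to 4 higher and 2 to 5 lower when a library was left out. Of the other pathway genes, the 3 higher became 5 without the mean-variance trend and 2 to 6 with a library left out, and the 4 lower became 1 with a minimum of 5 and 3 to 5 with a library left out. The cause was not tested, beyond the fewer genes tested at a minimum of 5. Tgfb2 had its log2 change turn to -0.0168 without Fmr1-KO replicate 3 (-0.0168 to 0.0766 over the left-out libraries), and Bmp1 to 0.0362 without Fmr1-KO replicate 1 (-0.0615 to 0.0362). The median log2 change of the members turned to -0.0113 without WT replicate 1. With the replicate number as a block, 4 members were higher and 4 lower, 4 and 5 without a minimum, and 4 and 5 of the other pathway genes, with 0 at an adjusted p below 0.05; deviations of same-numbered libraries correlated at 0.243, 0.0577 and 0.0801, and not every library correlated best with its own number, so the numbers were not taken as a pairing. FPKM give no counts, so precision at low levels, such as those of Bmp6, Eng and Grem1, rests on 3 libraries per genotype.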
